A study of Sus scrofa with 2 samples.

Results

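AMY2, an alpha-amylase gene, and SAL1, the gene of salivary lipocalin, were measured in ovarian tissue of conventional pigs and minipigs. They were read by 25 array probes whose transcript accession belongs to AMY2 (23 probes) or SAL1 (2 probes) in the RefSeq annotation of the pig, out of 43597 probes in all and 5577 probes that could be given a gene name. These 2 of the 2363 named genes with a measured difference or a bound were chosen by the size and shared direction of the differences of their probes between the arrays. Their differences are therefore a description, and no test was made on them.

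Ovaries of Yorkshire sows (conventional pigs) and Midget minipigs, 10 months old in both breeds and past several cycles, were taken on day 15 of the estrous cycle. Luteal tissue was cut away and the remaining tissue was used for RNA. One-color Agilent porcine arrays labelled with Cy3 were used, with 1 array for each breed, and the sources used here do not say whether an array carried RNA of 1 animal or of a pool. Log2 differences were taken as conventional pig less minipig, so that negative values stand for a higher signal in the minipig. The breed of each array is taken from the label of its scanner file, but the deposited table of log2 values assigns the arrays to the opposite breeds. Its minipig column matched the scanner intensities of the conventional pig array, and its conventional pig column those of the minipig array, with a largest departure of 7.46e-07 after 1 constant per array. By the labels of that table, AMY2 and SAL1 would both be higher in the conventional pig, and every other direction, count and share given by breed would be exchanged as well. Which assignment is right was not tested. In bulk tissue, fewer cells of a type and less RNA per cell cannot be told apart.

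Alpha-amylases are secreted enzymes that cut the internal glycosidic bonds of starch and glycogen. They are made in large amounts by the acinar cells of the pancreas and, in many mammals, by salivary glands. In human gene naming, AMY2 genes are the pancreatic type, while the annotation of the pig lists AMY2 with the synonym AMY2B. The probes were therefore treated as AMY2 and not as a salivary form. Lipocalins are small secreted proteins that fold into a barrel and hold a hydrophobic molecule inside. SAL1 is known from the saliva of boars, where it carries the steroid pheromones androstenone and androstenol. Neither gene is among the usual markers of an ovarian cell type.

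The level of a probe is its log2 intensity minus the 75th percentile of its array, so that 0 stands for the 75th percentile. On the minipig array the 23 probes of AMY2 had intensities from 4688 to 46311, with a median of 22301. On the conventional pig array they ran from 347 to 3037, with a median of 1413. The ranges of the AMY2 intensities did not overlap between the arrays. The rule chose AMY2 for this contrast and overlap was not counted for other genes, so nothing is read from it. Each of the 23 was well above background on either array, where the local background around their spots was between 17.5 and 28 in the minipig and between 20 and 27.5 in the conventional pig. As levels, the probes lay between 3.25 and 6.55 in the minipig and between -0.56 and 2.57 in the conventional pig.

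Probe by probe, the log2 difference of AMY2 had a median of -3.95 (SD 0.18 over 23 probes of 1 array pair), which is 15.4-fold higher in the minipig. It ran from -4.30 to -3.31, that is from 19.8-fold to 9.94-fold. One probe, A_72_P749265, stood somewhat apart at -3.31, and the next smallest difference was -3.75. Without that probe the SD over the probes was 0.13. The error that the scanner software attaches to each AMY2 spot was close to 10% of its intensity, which gives an error of 0.20 for the log2 difference of a probe. The spread among the AMY2 probes was thus about as large as this error of a difference. All 23 were at least 8-fold higher in the minipig, as were 0.337% of the 38883 probes for which a difference or a bound could be given, and all 23 were at least 2-fold higher, as were 8.94% of the probes, while 7.48% were at least 2-fold higher in the conventional pig. The rule used this contrast, and nothing is read from these counts.

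**Figure D1:**
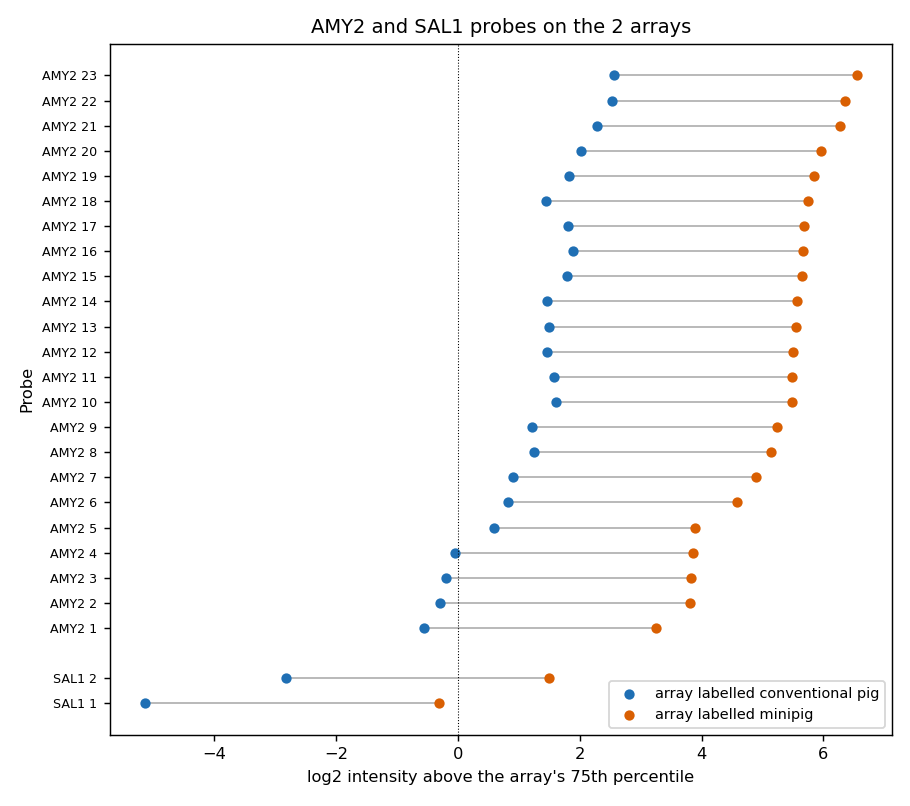
Levels of the 23 AMY2 probes and the 2 SAL1 probes on both arrays. The horizontal axis is the log2 intensity above the 75th percentile of the array (dotted line at 0), each row is a probe, numbered within its gene from the dimmest to the brightest in the minipig, and the grey line is the log2 difference. Every probe lies further right on the array labelled minipig, with log2 differences from -4.83 to -3.31.

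Brightness among the AMY2 probes varied 9.88-fold in the minipig, while the difference between the arrays hardly varied. The order of the probes was nearly the same on both arrays, with a Pearson correlation of 0.98 between the levels over the 23 probes, which share 1 transcript and the same 2 RNA samples. Brighter probes did not show larger differences. Between the difference and the mean level, Pearson's r was -0.19 and Spearman's rho was 0.04 over the 23 probes, a description only. The spots were spread over the array, from row 30 to row 483 of 532 and from column 5 to column 83 of 85. The brightest probe, A_72_P762901, had an intensity of 46311 in the minipig and 3037 in the conventional pig. The dimmest, A_72_P739824, had 4688 and 347, and their log2 differences were -3.98 and -3.81.

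No gene but 1 had more probes on the array than AMY2, and the median over named genes was 2. Because of this, AMY2 weighs heavily where probes are counted. Of the 131 probes at least 8-fold higher in the minipig, 52 could be named and 23 of them (44.2%) were AMY2 probes and 2 were SAL1 probes, although AMY2 made up 0.433% of the named probes that had a difference. Counted as genes, AMY2 and SAL1 were 2 of 15 genes (0.635% of 2363) whose median was at least 8-fold higher in the minipig. The rule chose AMY2 and SAL1 for this contrast, so nothing is read from these counts and shares.

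Genes with 10 or more probes show how well probes of the same gene agreed. There were 40 such genes, AMY2 included, and in 25 of them all probes pointed the same way. In 3 genes every probe was past 2-fold in the same direction: AMY2, LOC396781 (13 probes, median log2 difference 3.34) and TUBA1B, an alpha-tubulin gene (12 probes, 1.62). The SD over the probes of a gene ran from 0.08 to 1.45 with a median of 0.20, and 18 genes had a smaller SD than AMY2. Agreement between probes was therefore ordinary in AMY2. ACTA1, the skeletal muscle actin gene, had the largest spread, with 16 probes from -4.27 to 0.32.

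**Figure D2:**
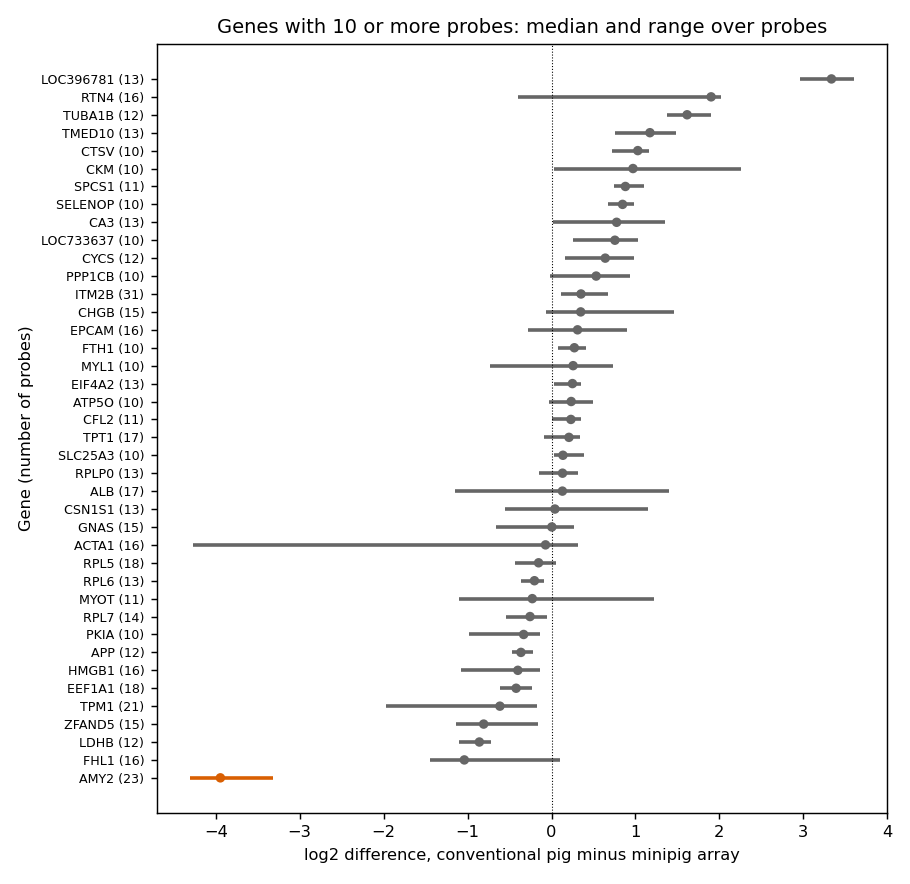
Log2 difference between the arrays (conventional pig less minipig) for the 40 genes with 10 or more probes. Points are medians over the probes of a gene, bars run from the lowest to the highest probe, and the number of probes stands in brackets. AMY2 lies at -3.95 with a bar from -4.30 to -3.31, and the bar of LOC396781 lies wholly on the other side.

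SAL1 was measured by 2 probes, both of them brighter in the minipig. The probe A_72_P088261 had an intensity of 1398 in the minipig and 72.2 in the conventional pig. A_72_P766818 had 400.0 in the minipig and 14.6 in the conventional pig. Both probes were flagged as well above background on both arrays, but the lowest intensity with that flag in the conventional pig was 11.5, so the second probe was close to the limit there. The log2 differences were -4.33 (20.1-fold) and -4.83 (28.5-fold), with a median of -4.58, or 23.9-fold higher in the minipig.

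Precision was lower for SAL1 than for AMY2. The scanner error of the dimmer SAL1 spot in the conventional pig was 21.2% of its intensity, and the errors of the log2 differences were 0.21 and 0.34. The size of the SAL1 difference also depended on how background was treated. With normexp background correction, which adds an offset to every signal and so shrinks the differences of dim probes, the log2 difference of SAL1 was -3.14 (8.81-fold), and the dimmer probe alone gave -2.58 (5.98-fold). AMY2 stayed at -3.86 with the same correction. The direction of SAL1 was the same under every scaling and background setting tried with the labels of the scanner files.

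Repeated spots gave the only technical replication of the arrays. Over 42 probes printed several times, spots of the same probe had an SD of 0.20 in the minipig and 0.15 in the conventional pig (log2), or 0.25 for a difference between single spots. AMY2 and SAL1 were chosen by the size of their differences, so setting these against the SD of 0.25 had a fixed outcome. Nothing is read from that comparison. The SD describes spots and not animals, and the dimmer SAL1 probe had a larger scanner error of its log2 difference, 0.34. Spiked-in control transcripts with every spot well above background on both arrays, 9 of 10, had log2 differences from -0.82 to 0.14 with a median of -0.18. Over all probes the log2 difference had a median of -0.12, and over all named genes 0.04. With 1 array for each breed, differences between animals were not measured and no p-value can be given.

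Among the 2363 named genes ordered from the most negative difference, SAL1 held place 2 and AMY2 place 7, with genes that had a bound ranked at their bound. SAL1 and AMY2 were chosen for this difference, so nothing is read from their places. Of the genes ranked after AMY2, 43 had a bound only and lay toward the minipig, and their differences may be larger than listed. Of the other genes up to the place of AMY2, SFRP4, a secreted Wnt antagonist, was at -4.71 (1 probe). IGFBP2, an IGF binding protein (-4.31), and the aromatase genes CYP19A2 (-4.22, 1 probe) and CYP19A3 (-4.11), which make estrogens, lay in the same range. The remaining gene was ST6GALNAC5, a sialyltransferase gene (-4.19, 1 probe). The aromatase genes are close paralogs, and their probes may bind each other's transcripts, which was not tested.

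The genes most like AMY2 were searched among 1160 genes with at least 2 probes, all well above background on both arrays, by the distance between the levels on both arrays. Likeness over 2 arrays is weak, and brightness also depends on the probe. IGFBP2 was nearest to AMY2 by far, at a distance of 0.33, with levels of 5.44 in the minipig and 1.14 in the conventional pig, against 5.50 and 1.46 for AMY2. The next were ST3GAL4 (1.86), KIT (2.01), ID2 (2.20) and SPARCL1 (2.35). None of the 1160 genes lay so near to SAL1, whose levels were 0.60 in the minipig and -3.98 in the conventional pig. The distances to SAL1 were 1.58 for IL1B2, 1.61 for CYP19A3, 1.68 for PDK4, 1.75 for TNC and 1.87 for MYOC. Of the genes listed for AMY2 and SAL1, only SPARCL1 (-0.65) and IL1B2 (-0.83) had a median log2 difference short of 2-fold. Genes outside the 1160 were not ranked, and some were nearer. FSHR (1 probe), at -0.12 in the minipig and -3.75 in the conventional pig, was nearer to SAL1 than IL1B2. So were LGI1 (0.24 and -3.65), CCL26 (-0.51 and -4.22) and ST6GALNAC5 (-0.36 and -4.55), and LGI1 was nearer than FSHR. INSL3 (1 probe), at 6.17 and 2.41, was nearer to AMY2 than ST3GAL4.

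**Figure D3:**
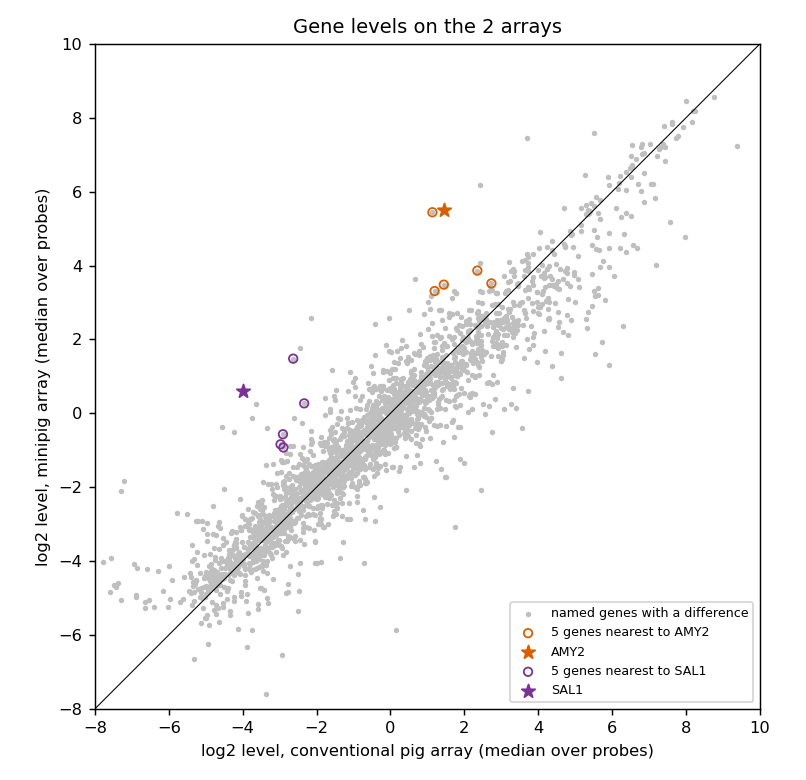
Log2 levels (median over probes, 0 at the 75th percentile) of the named genes in the conventional pig (horizontal) and the minipig (vertical), with the line of equal levels. AMY2 and SAL1 are stars above the line, and open circles mark the 5 genes nearest to each among the 1160 genes with at least 2 probes, all well above background. Among these, IGFBP2 overlies AMY2 at a distance of 0.33 and the nearest to SAL1 lies 1.58 away, while genes outside them were not ranked.

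Of the other genes of starch digestion on the list, none was named on the array by this matching, so AMY2 stood alone as 1 of 10. Mammalian amylase genes lie in clusters of near-identical copies, and in the pig annotation the next protein-coding gene after AMY2 is LOC100521789, followed by RNPC3. LOC100521789 had no named probe, and binding of its transcripts by the AMY2 probes was not tested, so the AMY2 values may include those of close copies. Genes that handle glycogen and glucose phosphates, the inner counterpart of starch, had values for 6 of 27. Their median log2 difference was 0.88, opposite in sign to AMY2, and 3 were at least 2-fold higher in the conventional pig while 0 were in the minipig. Over all genes these shares were 11.7% and 7.96%. UGP2, which makes UDP-glucose for glycogen, was at 2.26, GPI, a glycolytic isomerase, at 1.74 and HK2, a hexokinase, at 1.32. HK2 had 1 probe, with a level of -4.49 in the minipig. With normexp correction the median of the list was 0.47, and 2 genes were at least 2-fold higher in the conventional pig.

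Of the 21 genes on the list, 6 besides SAL1 had a value, with a median of 0.03, which ran from -0.20 to 0.19 over the other scalings, filters and probe summaries and so has no direction. PTGDS, which makes prostaglandin D, was at -0.03, PAEP (glycodelin) at 0.14 and OBP2B, an odorant-binding protein, at 0.10. RBP4, the retinol carrier, had a median of 0.15, but its 3 probes ran from -1.55 to 0.37. APOM, an apolipoprotein, and C8G, a complement subunit, were at -1.45 and -1.81, toward the minipig array like SAL1. The 2 probes of APOM ran from -2.32 to -0.58, and C8G had 1 probe. These 2 of the 6 were at least 2-fold higher in the minipig, as were 7.96% of all genes. In the conventional pig 0 of the 6 were at least 2-fold higher, against 11.7% of all genes. OBP and AMBP did not rise well above background in either breed.

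Markers of tissues that are rich in amylase or in SAL1 were set beside both genes. Between 10% and 78.6% of the genes of each list had a value, so the counts describe the measured genes and not the whole lists. Of 30 pancreatic acinar markers 9 had a value, with a median log2 difference of -0.31. Of the 9, 7 lay toward the minipig like AMY2, where the median over all named genes was 0.04. The share of all genes by sign was not counted. Past 2-fold toward the minipig were 2 of the 9, against 7.96% of all genes. These were PLA2G1B, a secreted phospholipase, at -2.14 and RNASE1, a secreted ribonuclease, at -1.85, with 1 probe each. The digestive enzymes CELA1, CELA2A, CPA1, CPB1 and PNLIP had levels between -5.43 and -3.06 in the minipig, where the lowest level well above background was -5.54. CLPS, the cofactor of pancreatic lipase, had levels of 0.42 in the minipig and 0.19 in the conventional pig. The log2 of the summed level of the 9 markers was 2.16 in the minipig and 1.21 in the conventional pig. RNASE1 alone had levels of 0.84 in the minipig and -1.01 in the conventional pig, so it weighs on this difference. Trypsinogen and chymotrypsinogen genes of the list had no probe with a name here. The part of these genes' cells in the AMY2 difference was not tested.

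Salivary gland markers had values for 13 of 25 genes and a median of 0.15, which ran from -0.01 to 0.31 over the same alternatives. Of the 13, 0 were at least 2-fold higher in the minipig and 1 in the conventional pig, with 7.96% and 11.7% over all genes. The latter was DMBT1, a mucosal glycoprotein, at 1.35 (1 probe, with a level of -4.77 in the minipig). With normexp correction, or with no filter on dim probes, 0 were at least 2-fold higher in the conventional pig. The gland proteins BPIFA1, BPIFA2, BPIFB1, CA6 and ODAM had levels between -4.95 and -4.02 on both arrays, and PIGR was not well above background on either. Other markers of the list were brighter. AQP5 had levels of -0.74 in the minipig and -0.12 in the conventional pig, LTF -1.87 and -1.71, and KLK1 -2.52 and -2.20. MUC19 was at -3.57 and -3.01, and EGF at -3.73 and -3.54. CST3, an inhibitor of cysteine proteases made in most tissues, was at -0.05 and LYZ, lysozyme, at -0.20. The log2 of the summed level of the 13 markers was 5.50 in the minipig and 5.47 in the conventional pig, most of it CST3, and without CST3 it was 1.25 in the minipig and 1.50 in the conventional pig. Markers of oviduct and surface epithelium, which can adhere to the ovary, had values for 8 of 20 genes and a median of -0.37. Past 2-fold were 0 of the 8, against 7.96% of all genes toward the minipig and 11.7% toward the conventional pig. Among them WFDC2, an epithelial secreted protein, was at -0.11 and KRT8, a keratin, at -0.28. Their summed level was 2.06 in the minipig and 1.73 in the conventional pig.

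**Figure D4:**
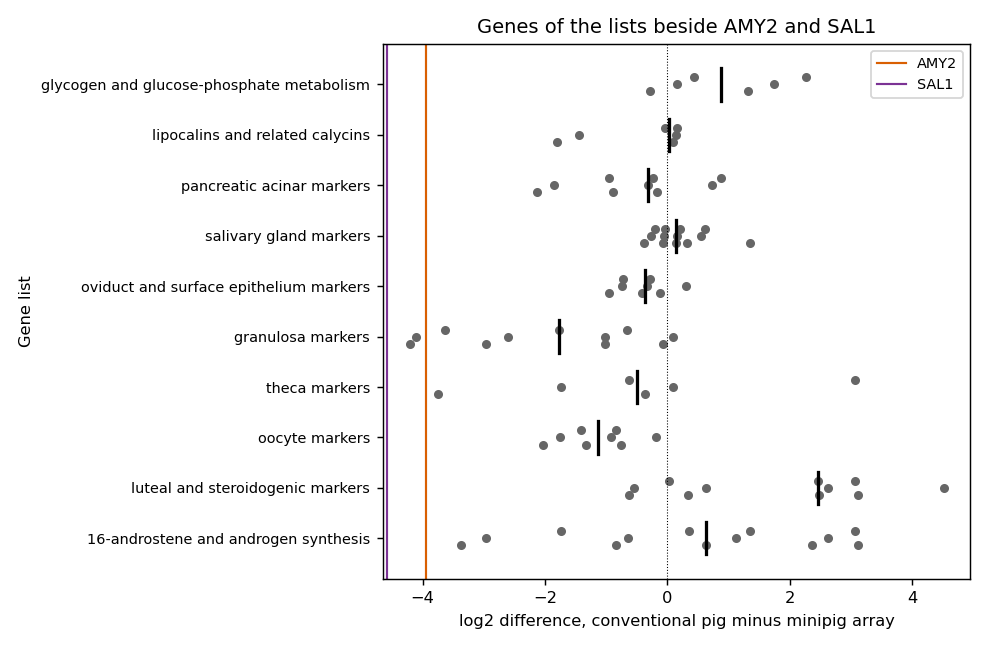
Log2 difference between the arrays (conventional pig less minipig) for the genes of 10 lists. Each point is a gene, the black bar is the median of the list without AMY2 and SAL1, and the coloured lines mark AMY2 (-3.95) and SAL1 (-4.58). Medians of the granulosa (-1.77), oocyte (-1.13), theca (-0.49), epithelial (-0.37) and pancreatic (-0.31) markers lie on the side of both genes, and those of the luteal (2.46), glycogen (0.88), androgen (0.63), salivary (0.15) and lipocalin (0.03) lists on the other.

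Ovarian cell markers moved with AMY2 and SAL1, some in the same direction and some in the opposite one. Granulosa markers, from the cells that line the follicle, had values for 11 of 16 genes and a median of -1.77. Of these, 8 were at least 2-fold higher in the minipig, the same direction as AMY2 and SAL1, against 7.96% of all genes. CYP19A2 and CYP19A3 have been given above, while the aromatase gene CYP19A1 was at 0.09 with 2 probes from -0.34 to 0.52. FSHR, the receptor of FSH, was at -3.63 and HSD17B1, which makes estradiol, at -2.96, with 1 probe each. SERPINE2, a protease inhibitor, was at -1.03 and FST, follistatin, at -0.08. The log2 of the summed level of the granulosa markers was 7.08 in the minipig and 5.83 in the conventional pig. Oocyte markers had values for 8 of 17 genes, all 8 toward the minipig array, with a median of -1.13, against 0.04 over all named genes. Of the 8, 4 were at least 2-fold higher in the minipig, against 7.96% of all genes. Summed levels were 3.93 in the minipig and 2.18 in the conventional pig. Most of both was KIT, with levels of 3.48 and 1.44. KIT was at -2.04, the meiotic kinase MOS at -1.75, and the zona pellucida genes ZP4 and ZP3 at -1.41 and -1.33. MOS, ZP4 and ZP3 had 1 probe each. Theca markers, 6 of 10, had a median of -0.49. INSL3, a peptide hormone of theca cells, was at -3.76 (1 probe), CYP17A1, which makes androgens, at -1.74 and ACTA2, smooth muscle actin, at 0.10. STAR, also a theca marker, was the 1 of the 6 that was at least 2-fold higher in the conventional pig, at 3.07. In the minipig, 2 of the 6 were at least 2-fold higher. Over all genes these shares were 11.7% and 7.96%. The part of these cell types in the AMY2 and SAL1 differences was not tested.

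Luteal and steroidogenic markers lay mostly on the other side. Of 14 genes 11 had a value, with a median of 2.46, and 6 were at least 2-fold higher in the conventional pig, where 11.7% of all genes were. SCP2, a sterol carrier, was at 4.52 (1 probe) and HSD3B1, which makes progesterone, at 3.11. STAR, which brings cholesterol into mitochondria, was at 3.07 and CYP11A1, which cleaves the side chain of cholesterol, at 2.63. These were opposite in sign to SAL1 and AMY2. FDX1, which hands electrons to CYP11A1, was at 0.63 and OXT, oxytocin, at 0.33. Of the 11, 9 lay toward the conventional pig and 2 toward the minipig like SAL1 and AMY2. The 2 were LHCGR, the LH receptor, at -0.62 and PRLR, the prolactin receptor, at -0.55 (1 probe, with a level of -4.25 in the minipig). NR5A1 was at 0.02, with probes from -0.72 to 0.75. Summed levels were 7.42 in the minipig and 8.80 in the conventional pig. The part of luteal tissue in the AMY2 and SAL1 differences was not tested.

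The list of androgen synthesis and of the steroids that SAL1 carries also holds genes that make or conjugate other steroids, such as HSD17B1 and SULT1E1. Its genes did not move together. Of 21 genes 13 had a value and their median was 0.63, with 6 at least 2-fold higher in the conventional pig and 3 in the minipig, with 11.7% and 7.96% over all genes. CYB5A, the cytochrome that helps the CYP17A1 enzyme make pheromone precursors, was at 2.36, opposite to SAL1. CYP17A1 itself was lower in the conventional pig, as was SAL1, although its 2 probes ran from -2.49 to -0.99. SULT1E1 (1 probe), which conjugates estrogens, was not well above background in the conventional pig and at least 10.3-fold higher in the minipig. In all, 5 of the 13 lay toward the minipig like SAL1 and 8 lay toward the conventional pig, with STAR (3.07) and HSD3B1 (3.11) among the latter and HSD17B1 (-2.96) among the former, all of them also on the lists above.

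The genes next to AMY2 and SAL1 on their chromosomes were mostly not named on the array. Of the 5 protein-coding genes on each side of AMY2, only COL11A1, a collagen gene, had a named probe, and its log2 difference was -0.16. Of the 5 on each side of SAL1, only SLC31A1, a copper transporter, did, and its log2 difference was -0.24. SLC31A1 was dim, with levels of -4.38 in the minipig and -4.62 in the conventional pig, and the other neighbours had no value here.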

How the data were processed

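Total RNA from ovary without corpora lutea was labelled with Cy3 and hybridised to 1 Agilent porcine array per breed. The authors scanned the arrays with Feature Extraction 10.7.3.1 and deposited the intensity of every spot, corrected for background and spatial trend but not between arrays. Also deposited by the authors were log2 values of 5617 probes, made with GeneSpring, whose breed labels are opposite to those of the scanner files. The normalization is not named in the sources used here. Over 5613 probes the deposited values were the log2 scanner intensities less 1 constant per array. By the scanner labels the constant was 8.94 for the minipig array and 9.00 for the conventional pig array.

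Control spots and outlier spots (5 in the minipig, 10 in the conventional pig) were left out, repeated spots were averaged on the log2 scale, and the 75th percentile of each array was subtracted. No spot of a probe was saturated. A probe well above background on 1 array only was given a bound against the lowest such intensity of the other array, or its own if higher. Well above background on both arrays were 36659 probes, a bound was given to 2224, and 4695 were on neither. The number of arrays limits the precision. Probe accessions, versions removed, were looked up in RefSeq's gene table for Sscrofa11.1, which named 5577 of 43597 probes. The files name no build, so no coordinates are given. Probes of a gene were summarised by their median. The members, lists and rule were chosen with earlier results of these data known. Genes named were the members, all amylase and lipocalin genes with a value, the 2 brightest and up to 4 most different genes (at least 2-fold) of each other list, the 5 genes nearest to each member and genes with 10 or more probes. Genes past AMY2, unranked genes near SAL1, other pancreatic, salivary and luteal markers and chromosomal neighbours were added after values were seen. A motif and protein comparison that had been planned was not run. Alternatives were other background corrections, scalings, filters and probe summaries, and the deposited table. Software was R 4.3.3 with limma 3.58.1 (normexp, offset 50) and Python 3.11.15 with pandas 2.3.3, numpy 2.4.6, matplotlib 3.10.9, statsmodels 0.14.6 and scipy 1.17.1. The steps were tested on simulated data.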

Additional observations from a re-analysis of the deposited data

How the results depend on the processing

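With the arrays labelled as in the scanner files, the log2 difference of AMY2 stayed between -4.19 and -3.79 over 12 alternatives and that of SAL1 between -4.62 and -3.14, where -3.14 came from normexp correction. The deposited log2 table by its own labels reversed both, to 3.95 for AMY2 and 4.58 for SAL1, with levels of 5.50 and 0.60 in the conventional pig column and 1.46 and -3.98 in the minipig column, because its labels are opposite to those of the scanner files. Levels moved by more than the spread of repeated spots where the zero point or the probe summary was changed. In the order AMY2 in the conventional pig, AMY2 in the minipig, SAL1 in the conventional pig and SAL1 in the minipig, they were 3.57, 7.45, -1.88 and 2.55 with median centring, 1.01, 5.08, -4.43 and 0.19 with the 75th percentile over probes that passed background on both, and 2.57, 6.55, -2.83 and 1.50 with the brightest probe. The mean over probes gave 1.28 and 5.21 for AMY2. Normexp correction gave 1.28 for AMY2 and -2.50 for SAL1 in the conventional pig. Of the probes at least 2-fold different, 3475 were higher in the minipig and 2909 in the conventional pig, or 54.4% in the minipig (45.6% by the labels of the table), against 40.2% with median centring, which moved all differences by 0.15 toward the conventional pig array, and 41.1% with normexp, where 1411 were higher in the minipig. No paired analysis was possible because there is 1 array per breed. Background limits the dimmer SAL1 probe in the conventional pig.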
